A study of Homo sapiens with 6 samples.

Results

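The response to doxycycline alone was described in a derivative of the human cell line HEK293, which came from embryonic kidney, that carries an empty vector and so has no transgene to induce. For each row of the deposited array table, the log2 level in the column without doxycycline (vector dox-) was subtracted from that in the column with doxycycline (vector dox+). Of 15492 rows, 11619 were kept because their mean over all 6 columns lay at or above the 25th percentile of row means (5.03 log2, with row means of 5.0258 just inside and 5.0254 just outside), and 9653 of these have 1 gene symbol, for 9569 genes. The response is given relative to the median row: the median difference over the kept rows, -0.05 in the vector line, was subtracted. It uses 2 of the 6 columns, and each is the authors' mean of 3 biological replicates, so the response has no replicate spread and no test, and rows were counted by size. A row was counted when it was at least 1.5-fold higher or lower, which is 0.585 on the log2 scale.

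The vector dox+ cells had 2 µg per ml doxycycline for 16 h and the vector dox- cells had none. The other 4 columns come from HEK293 derivatives with a tet-on wild-type APE1 (wtAPE1) or a tet-on ubiquitin-APE1 fusion (ubAPE1), with and without the same doxycycline treatment. All cells grew in medium with 1 µg per ml puromycin, so both sides of every comparison carry that antibiotic. Whether each derivative is 1 clone is not given in the sources used here. Total RNA was measured on Affymetrix whole-transcript arrays.

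Doxycycline is a tetracycline antibiotic that blocks the bacterial ribosome, and it also reaches the related ribosome inside mitochondria. That ribosome makes a small set of respiratory chain subunits encoded by mitochondrial DNA, which assemble with many subunits encoded in the nucleus. Stalled mitochondrial translation is known to engage the integrated stress response, whose transcription factor ATF4 drives genes of amino acid synthesis, amino acid transport and tRNA charging. Doxycycline also binds metal ions and inhibits matrix metalloproteinases.

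APEX1, the gene of APE1, checks which columns come from the APE1 lines. It cannot check which vector column had doxycycline, because that line has no transgene to induce. It measured 9.66 log2 in vector dox+ and 9.54 log2 in vector dox-, a response of 0.17, against responses of 1.1 in wtAPE1 and 0.88 in ubAPE1. Thus no rise of the size seen in the APE1 lines was measured in the vector line. Of 14 HEK293 identity markers, 12 were on the table and 10 were kept, with levels of up to 10.4 log2 in vector dox+ and 10.5 log2 in vector dox- for keratin 8 (KRT8). Over the 12 the median level was 6.86 log2 in vector dox+ and 6.96 log2 in vector dox-, and the lowest was NEFH, at 4.00 and 4.29 log2. Markers of other cell types were sparse, with 4 kidney tubule, 4 fibroblast or smooth muscle, 2 blood and 1 endothelial marker kept. The highest level among the markers of other cell types was 6.73 log2 in vector dox+ and 6.86 log2 in vector dox-, both for CD68, while the T cell gene CD3E had 3.62 and 3.59 log2 and the endothelial gene CDH5 4.41 and 4.38 log2. The HEK293 markers NEFH, EYA1, LHX1, PAX2 and WT1 lay below CD68 in both vector columns, so that list did not stand above it as a whole. No pair of the 6 columns was identical.

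The response had a step along the row order of the table, which bears on every value below. In the first 4794 kept rows the median response was 0.07 log2, and in the other 6825 rows it was -0.05 log2. All 19 full bins of 250 rows before the step had a median above 0, between 0.04 and 0.10 log2. All 27 bins after it had a median below 0, between -0.08 and -0.01 log2. The step was placed where the running sum of the signs of these vector responses lay furthest from 0. The signs of the vector bins on either side are therefore a description. The responses of the wtAPE1 and ubAPE1 lines stepped at the same place and the opposite way, with medians of -0.05 and -0.16 log2 before it and of 0.04 and 0.08 log2 after it. The row order largely follows chromosome. Kept rows of chromosomes 1 to 7 had medians from 0.06 (chromosome 1) to 0.10 log2 (chromosome 4). Medians were below 0 for each of chromosomes 9 to 22 and X. The step fell within chromosome 8, with 193 rows before it at 0.06 and 153 after it at -0.02 log2. The cause of the step was not tested. Values with the median subtracted within each of the 2 blocks of rows are given where they end a call.

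**Figure D1:**
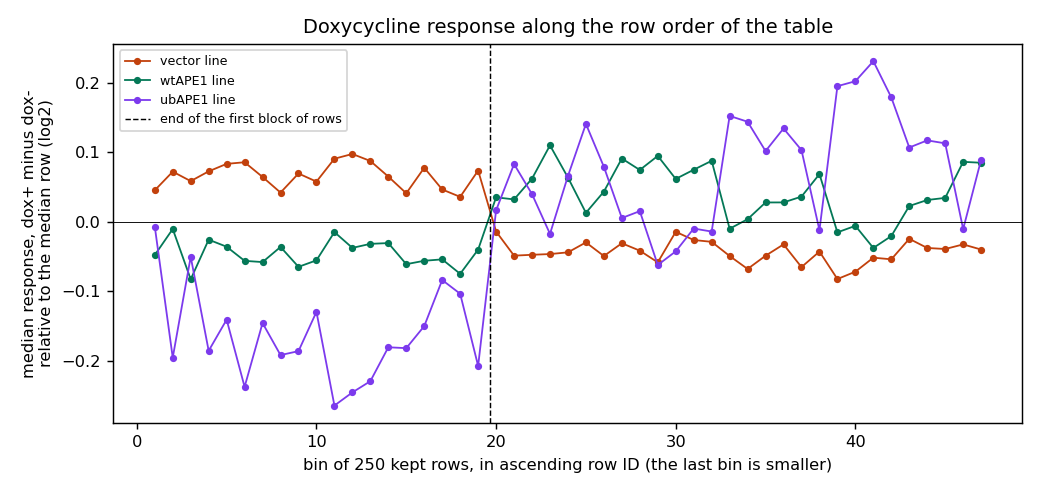
Median doxycycline response (dox+ minus dox-, log2, relative to the median row) in successive bins of 250 kept rows in the order of the table, for the vector, wtAPE1 and ubAPE1 lines. The vector medians lie between 0.04 and 0.10 before the step (dashed line) and between -0.08 and -0.01 after it, and the other lines step the opposite way.

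The vector line's response to doxycycline was small. Over the kept rows the 2 vector columns correlated at r = 0.988, and 74.0% of rows lay within 0.2 log2 of the median row. The spread of the responses over rows (SD) was 0.194 log2, beside 0.202 log2 in wtAPE1 and 0.30 log2 in ubAPE1. With doxycycline, 40 rows (0.344% of those kept) were at least 1.5-fold higher and 70 rows (0.602%) at least 1.5-fold lower. Of these, 2 were at least 2-fold higher and 5 at least 2-fold lower. As deposited, with no median subtracted, the split was 23 higher to 100 lower. The same size rule counted 59 higher (0.508%) and 49 lower (0.422%) in wtAPE1, and 141 higher (1.21%) and 443 lower (3.81%) in ubAPE1. Within row blocks the vector line had 30 higher rows, 25 of them among the 40, and 71 lower rows, 57 of them among the 70. These are bulk samples, in which fewer cells of a type and less RNA per cell cannot be told apart.

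**Figure D2:**
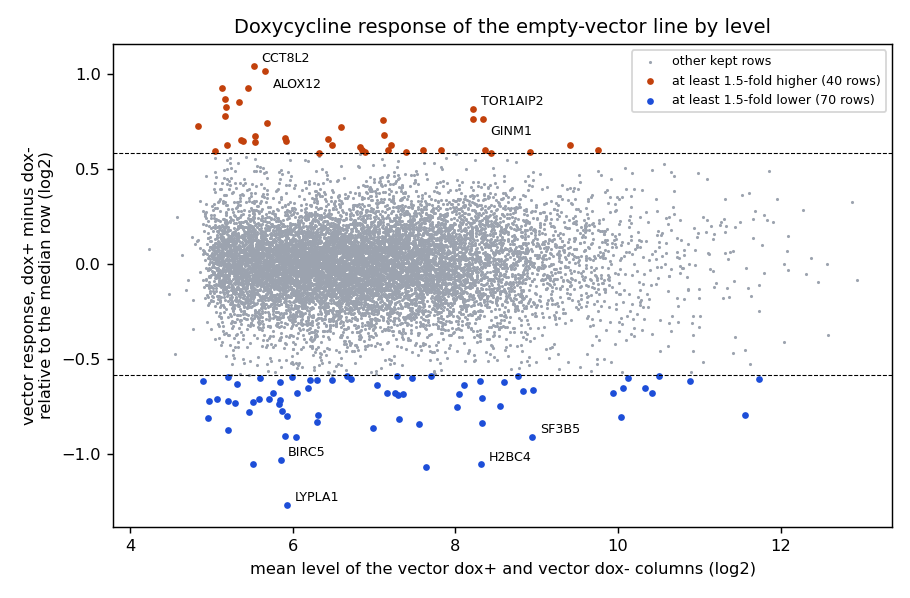
Vector response (dox+ minus dox-, log2, relative to the median row) against the mean of the 2 vector columns (log2) for the 11619 kept rows, with dashed lines at 1.5-fold. The 40 higher rows and the 70 lower rows lie at all levels, and LYPLA1 is the lowest row at -1.27.

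Among rows with 1 symbol, LYPLA1, a thioesterase that takes palmitate off proteins, had the lowest response. It measured 5.28 log2 in vector dox+ and 6.59 log2 in vector dox-, which is 2.41-fold lower. In wtAPE1 it measured 5.36 log2 with and 5.57 log2 without doxycycline, and in ubAPE1 5.23 and 5.52 log2, so the vector dox- column stood above the other 5. H2BC4, a gene of core histone H2B, had 7.77 log2 in vector dox+ and 8.87 log2 in vector dox-, 2.08-fold lower. BIRC5, which encodes the mitotic and anti-apoptotic protein survivin, was 2.04-fold lower in a row with 5.31 log2 in vector dox+ and 6.39 log2 in vector dox-. Its brighter row, at 8.72 and 8.81 log2, had a response of -0.05, so the rows of BIRC5 disagree.

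The next lowest rows include genes of splicing and of the ribosome. SF3B5, a subunit of the SF3b splicing complex, measured 8.47 log2 in vector dox+ and 9.42 log2 in vector dox-, a response of -0.91. CCNL2, a cyclin that takes part in splicing, had -0.82 in its brighter row and -0.07 in its other row. RPS27L, a paralog of a small-subunit ribosomal protein, had -0.91, the pseudogene RPS10P7 had -0.87 and RBIS, a ribosome biogenesis factor, had -0.84. Rows of paralogs and pseudogenes may share signal with their near-identical copies, and so these values are uncertain. ZDHHC20, a palmitoyltransferase, had -0.90 in its dimmer row and 0.11 in its brighter one, and PAXBP1, a PAX-binding protein, had -0.86.

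Some of the highest rows were dim in vector dox-. CCT8L2, a relative of a chaperonin subunit, measured 6.02 log2 in vector dox+ and 5.02 log2 in vector dox-, 2.06-fold higher. ALOX12, a lipoxygenase that oxidises arachidonic acid, measured 6.15 log2 in vector dox+ and 5.18 log2 in vector dox-, 2.02-fold higher. KRTAP21-2, a hair keratin-associated protein, had a response of 0.93, as did the homeobox gene HOXC11. CHRM4, a muscarinic acetylcholine receptor, had 0.73. All of these were at or below 5.2 log2 in vector dox-, close to the filter level of 5.03.

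Brighter higher rows were TOR1AIP2, GINM1, C6orf62, TMC7 and IGHMBP2. TOR1AIP2, an activator of the torsin ATPases of the endoplasmic reticulum, measured 8.61 log2 in vector dox+ and 7.83 log2 in vector dox-, a response of 0.82. Its dimmer row had -0.18, so its rows disagree. GINM1 had 8.70 log2 in vector dox+ and 7.98 log2 in vector dox-, a response of 0.77, and C6orf62 had the same response at 8.57 and 7.85 log2. TMC7, a transmembrane channel-like protein, had 0.76, and IGHMBP2, a helicase, had 0.72. Of the rows called, 13 of the 40 higher and 13 of the 70 lower have no single symbol and are not named.

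The core histone genes expressed in S phase (replication-dependent) were the list with the most members counted as lower. Of 53 listed, 35 were on the table and 28 were kept. With doxycycline 24 of the 28 lay below 0, with a median response of -0.37 log2. At least 1.5-fold lower were 6, and 0 were higher by that size. Over all 9569 genes with 1 row each, the median was 0.00 log2, 49.7% lay below 0, 54 were lower and 25 higher. H2BC4 is described above. H2BC7 had 9.61 log2 in vector dox+ and 10.46 log2 in vector dox- (-0.81), and H2BC15 had 6.16 and 6.81 log2 (-0.61). Among H2A genes, H2AC16 had 10.05 log2 in vector dox+ and 10.78 log2 in vector dox- (-0.68), H2AC15 had 9.71 and 10.41 log2 (-0.65), and H2AC21 had 10.19 and 10.82 log2 (-0.59).

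All 6 counted histones of the list are H2A or H2B genes, and 0 of the 4 H3 and 0 of the 8 H4 genes passed 1.5-fold. H2BC26, an H2B gene outside the list and named after its values were seen, was also lower (-0.66). The median response was -0.53 log2 for H2A (8 of 8 genes below 0), -0.35 for H2B (6 of 8), -0.34 for H3 (3 of 4) and -0.21 for H4 (7 of 8). The largest response upward in the list was that of H3C7, at 0.52 log2, with 6.82 log2 in vector dox+ and 6.35 log2 in vector dox-. The 3 linker histone H1 genes kept, which bind DNA between nucleosomes, were H1-3 (-0.38), H1-2 (-0.30) and H1-4 (-0.25). Of the 6 replication-independent variants kept, 3 lay above 0 and 3 below, with a median of 0.03 log2. SLBP, the protein that binds the stem-loop of histone mRNAs, had -0.28. Coding sequences of 1 histone family are near-identical and the probes of each row were not examined here, so the split between single histone genes is uncertain.

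Upstream sequence is shown for 5 histone genes, of which the first 4 were counted as lower and H3C2, at 11.32 log2 in vector dox+ and 11.81 log2 in vector dox- (-0.45), is among the brightest. Each line has the 130 bases before the transcription start from RefSeq, build GRCh38.p14, 5′ to 3′ on the gene's strand. Capitals mark the octamer ATTTGCAT, known for its place in H2B promoters, the CCAAT box and TATAAA, on either strand.
H2BC4 (chr6:26123927-26124056, minus strand): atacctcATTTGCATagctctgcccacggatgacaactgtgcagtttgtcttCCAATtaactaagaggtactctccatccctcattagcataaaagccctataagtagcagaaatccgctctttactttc
H2BC7 (chr6:26199386-26199515, plus strand): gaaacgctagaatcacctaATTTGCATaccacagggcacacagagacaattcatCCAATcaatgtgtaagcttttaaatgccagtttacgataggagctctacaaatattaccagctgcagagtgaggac
H2AC16 (chr6:27865187-27865316, plus strand): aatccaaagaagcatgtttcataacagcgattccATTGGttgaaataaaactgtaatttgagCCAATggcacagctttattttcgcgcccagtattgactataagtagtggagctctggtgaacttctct
H2AC15 (chr6:27838376-27838505, minus strand): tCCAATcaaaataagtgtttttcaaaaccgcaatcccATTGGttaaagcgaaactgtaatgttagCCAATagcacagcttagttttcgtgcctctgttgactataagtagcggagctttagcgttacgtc
H3C2 (chr6:26032100-26032229, minus strand): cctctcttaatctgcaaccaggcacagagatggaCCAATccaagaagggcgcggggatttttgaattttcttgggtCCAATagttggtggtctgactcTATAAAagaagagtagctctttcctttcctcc

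The octamer starts 123 bases before the start in H2BC4 and 111 bases before it in H2BC7. In windows of 250 bases before to 50 after the start, searched on both strands, ATTTGCAT was in 13 of the 25 core histone promoters found (52%), against 1.80% of all 27305 promoters in the table. CCAAT was in 21 of 25 (84%), against 35.7% of all promoters, and TATAAA was in 17 of 25 (68%), against 12%. A match is a description of these windows and not a measurement of binding.

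On the mitochondrial side, respiratory subunits and mitochondrial ribosomal proteins lay mostly below 0, and several other lists did not. Of 15 listed mitochondrially encoded genes, 2 were on the table, both subunits of complex I. ND5 measured 10.59 log2 in vector dox+ and 11.21 log2 in vector dox-, a response of -0.57. ND6 measured 9.81 log2 in vector dox+ and 10.21 log2 in vector dox-, a response of -0.35. Neither passed 1.5-fold. In wtAPE1 ND5 had 10.88 log2 with and 10.40 log2 without doxycycline (0.41), and in ubAPE1 it had 10.33 and 10.90 log2 (-0.44), so the lines differ in sign for ND5. ND6 lay below 0 in each line, with -0.31 in wtAPE1 and -0.18 in ubAPE1. The genes ND5 and ND6 lie next to each other on opposite strands of mitochondrial DNA.

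Complex IV, cytochrome c oxidase, had the lowest median of the nuclear respiratory lists. Of its 9 kept subunits 7 lay below 0, with a median of -0.41 log2. COX7B had 9.80 log2 in vector dox+ and 10.45 log2 in vector dox-, 1.51-fold lower. COX8A had 8.45 log2 in vector dox+ and 9.09 log2 in vector dox-, 1.5-fold lower. Within row blocks these responses were -0.55 and -0.54, so neither passed 1.5-fold there. The other subunits below 0 were COX6B1 (-0.53), COX7A2 (-0.45), COX5B (-0.41), COX5A (-0.27) and COX4I1 (-0.21), and COX7A2L (0.13) and COX6C (0.05) lay above it. COX7A2L helps join complexes into supercomplexes.

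In complex I, 18 of 27 kept nuclear subunits lay below 0, with a median of -0.13 log2. NDUFB10 had 8.26 log2 in vector dox+ and 8.93 log2 in vector dox- (-0.62), and within row blocks -0.58, just short of 1.5-fold. NDUFA2 had -0.55, and NDUFC1 had 0.47, with 10.00 log2 in vector dox+ and 9.58 log2 in vector dox-. UQCR10 of complex III had -0.55 and ATP5MJ of the ATP synthase had -0.51. Over the nuclear respiratory subunits together, 40 of 56 lay below 0 with a median of -0.15 log2, 3 were at least 1.5-fold lower and 0 higher.

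The mitochondrial ribosome, the drug's organellar target, had 48 of 67 kept protein genes below 0, with a median of -0.10 log2 and 0 members past 1.5-fold. MRPL23 of the large subunit had -0.45 and MRPS23 of the small subunit had -0.40, while MRPL2 had 0.35. Mitochondrial translation factors had 6 of 11 above 0, with a median of 0.07 log2, and 10 of 17 genes of mitochondrial transcription, RNA and DNA maintenance lay above 0. Mitochondrial aminoacyl-tRNA synthetases, which charge tRNAs inside the organelle, went the other way: 9 of 12 lay above 0, with a median of 0.12 log2, or 0.07 within row blocks. FARS2 had 6.21 log2 in vector dox+ and 5.84 log2 in vector dox- (0.42), and IARS2 had 9.30 and 8.94 log2 (0.41). DNM1L, the dynamin-like GTPase that divides mitochondria, was 1.61-fold lower, with 6.93 log2 in vector dox+ and 7.66 log2 in vector dox-. The fusion GTPases MFN1 and OPA1 had 0.31 and 0.29.

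**Figure D3:**
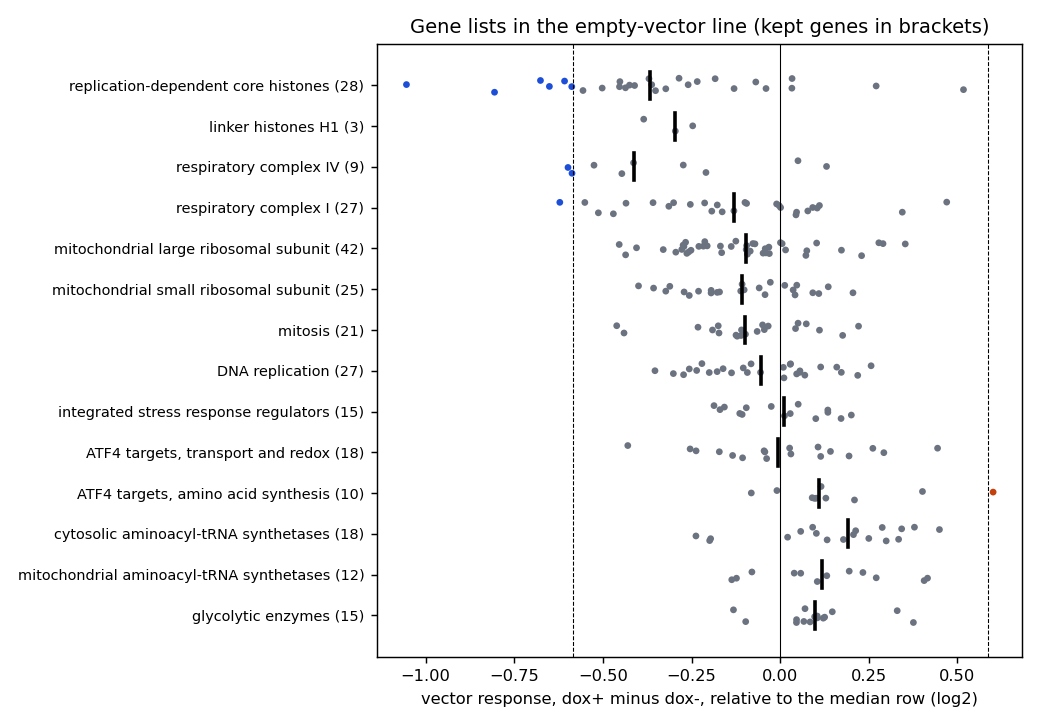
Vector response (dox+ minus dox-, log2, relative to the median row) of each kept gene in 14 lists, 1 point a gene, with a black bar at the list median and dashed lines at 1.5-fold. Core histones (median -0.37) and complex IV (-0.41) lie lowest, and the cytosolic aminoacyl-tRNA synthetases (0.19) highest.

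The genes of the integrated stress response are given by branch, and no test between branches was made. Of 15 kept regulators, sensors and factors of the pathway, 8 lay above 0 with a median of 0.01 log2 and 0 past 1.5-fold. The largest were EIF2AK1, the heme-regulated kinase that relays mitochondrial stress, at 0.20, and ATF5 at -0.19. Of 10 kept ATF4 targets for amino acid synthesis and one-carbon metabolism, 8 lay above 0 with a median of 0.11 log2. MTHFD2, a mitochondrial enzyme of the folate cycle, had 10.03 log2 in vector dox+ and 9.48 log2 in vector dox-, 1.52-fold higher, and within row blocks 0.53, which does not pass 1.5-fold. ASNS, asparagine synthetase, had 9.59 log2 in vector dox+ and 9.24 log2 in vector dox- (0.40), and PHGDH, the entry enzyme of serine synthesis, had 10.70 and 10.53 log2 (0.21). Of 18 ATF4 targets for transport, redox and feedback, 9 lay above 0 and 9 below, with a median of -0.01 log2. VLDLR, a lipoprotein receptor, had 0.44 and HERPUD1, a factor of protein degradation at the endoplasmic reticulum, had -0.43.

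Cytosolic aminoacyl-tRNA synthetases, the enzymes that load amino acids onto tRNAs, had 15 of 18 kept members above 0, with a median of 0.19 log2 and 0 past 1.5-fold. NARS1 had 10.11 log2 in vector dox+ and 9.71 log2 in vector dox- (0.45). LARS1 had 10.01 and 9.68 log2 (0.38), RARS1 had 9.61 and 9.32 log2 (0.34) and EPRS1 had 9.77 and 9.48 log2 (0.33). The members below 0 were WARS1 (-0.24), FARSA (-0.20) and GARS1 (-0.20). NARS1 is one of 6 synthetases whose promoter holds the ATF4 motif TGATGNAA, and 4 such sites, 3 of synthetases and that of ASNS, are shown with the site in capitals and 11 bases on each side (RefSeq, GRCh38.p14, 5′ to 3′ on the gene's strand).
NARS1 (chr18:57621804-57621833, minus strand): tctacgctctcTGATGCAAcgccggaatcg
TARS1 (chr5:33440956-33440985, plus strand): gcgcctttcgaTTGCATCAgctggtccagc
AARS1 (chr16:70289675-70289704, minus strand): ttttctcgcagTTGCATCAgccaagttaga
ASNS (chr7:97872458-97872487, minus strand): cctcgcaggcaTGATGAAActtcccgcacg

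TGATGNAA was searched on both strands of the same windows, so a site may be printed as its reverse complement. It was in 6 of 15 synthetase promoters found (40%), against 3.67% of all promoters and 1.57% of those of kept genes. The 6 genes with the site had a median response of 0.16 log2 and the 9 without it 0.21 log2. Synthetases with the site that are not shown above were IARS1 (0.10), MARS1 (0.09) and CARS1 (0.02). Over the ATF4 targets for amino acid synthesis, 2 of 9 promoters held it, those of ASNS and of GOT1 (-0.08). Over those for transport, redox and feedback, 4 of 16 held it, with a median response of -0.07 log2, and the 12 without it had -0.01 log2. The 4 were SLC7A1 (0.14), SLC3A2 (0.11), CHAC1 (-0.25) and HERPUD1 (-0.43).

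Glycolytic enzymes lay above 0 in 13 of 15 cases, with a median of 0.10 log2 and 0 past 1.5-fold. PGK1, which makes ATP in glycolysis, had 11.78 log2 in vector dox+ and 11.45 log2 in vector dox- (0.38), and ENO1, enolase, had 13.03 and 12.74 log2 (0.33). In the tricarboxylic acid cycle 9 of 14 genes lay above 0, and DLD, a shared subunit of its dehydrogenases, had 0.49 while IDH3G had -0.40. Of the mitosis genes 15 of 21 lay below 0 with a median of -0.10 log2, led by the cell cycle kinase CDK1 (-0.46) and the spindle protein NUSAP1 (-0.44). Of 27 DNA replication genes 14 lay below 0 with a median of -0.06 log2. Among cytosolic large-subunit ribosomal proteins, RPL36 (-0.63), RPL11 (-0.61) and RPL18 (-0.60) were at least 1.5-fold lower out of 15 kept, and RPL18 had -0.56 within row blocks. In that list 7 of 15 lay above 0, up to 0.37 for RPL37A, and the median was -0.10 log2, or -0.06 within row blocks and -0.04 with the length trend removed. The 10 small-subunit proteins kept had a median of -0.17 log2, with RPS4X and RPS25 at -0.46.

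Lists tied to the metal binding and protease inhibition of doxycycline had medians between 0.02 and 0.16 log2 and 0 members past 1.5-fold in the row used for each gene. Iron handling genes had a median of 0.05 log2, and TFRC, the transferrin receptor, had 0.28. The 4 kept metallothionein and zinc transport genes were all above 0, with SLC39A1, a zinc importer, at 0.39. Their median was 0.16 log2, and 0.05 log2 over the 6 on the table with no row filter. Targets of the hypoxia factor HIF had a median of 0.07 log2, led by P4HA2, a collagen prolyl hydroxylase, at 0.39. A dimmer row of P4HA2 had 0.63, and 0.56 within row blocks. Matrix metalloproteinases and their inhibitors had a median of 0.02 log2, with TIMP1 at -0.29 and MMP9 at 0.23. NRF2 targets had a median of 0.10 log2, with ME1, malic enzyme, at 0.43. Of the 38 lists with at least 5 kept genes, 26 had a median within 0.1 log2 of 0, 5 lay further above and 7 further below.

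The rows counted as lower tended to be of short genes, though not all were. Their median genomic length was 6.87 kb over the 57 with a length, against 23.3 kb for the 27 higher rows with a length and 28.8 kb for all 9647 such rows. Of the 1930 rows with the shortest genes, 31 were lower (1.61%), and of the 1930 with the longest, 1 was (0.0518%). The median response was -0.04 log2 in the shortest and 0.03 log2 in the longest. In wtAPE1 these medians were -0.07 and 0.04 log2, and in ubAPE1 they ran the other way, at 0.18 and -0.16 log2. Core histone and respiratory subunit genes are short, and the part of gene length in their responses was not tested beyond the removal of the length trend. With that trend removed, the core histone median was -0.30 log2.

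Both vector columns contributed to the counted rows. Among the 70 lower rows, vector dox+ was the lowest of the 6 columns in 49, vector dox- was the highest in 37, and both held in 20. Among the 40 higher rows, vector dox+ was the highest in 17, vector dox- was the lowest in 26, and both held in 6. Set against the mean of the 4 APE1 columns, the lower rows had a median of -0.37 log2 in vector dox+ and 0.32 log2 in vector dox-, and the higher rows had 0.25 and -0.43 log2. Rows were counted by the difference of the same columns, so these values are a description. The higher rows stood further from the APE1 columns in vector dox- than in vector dox+. Of the 28 core histones, vector dox+ was the lowest column for 12 and vector dox- the highest for 9.

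**Figure D4:**
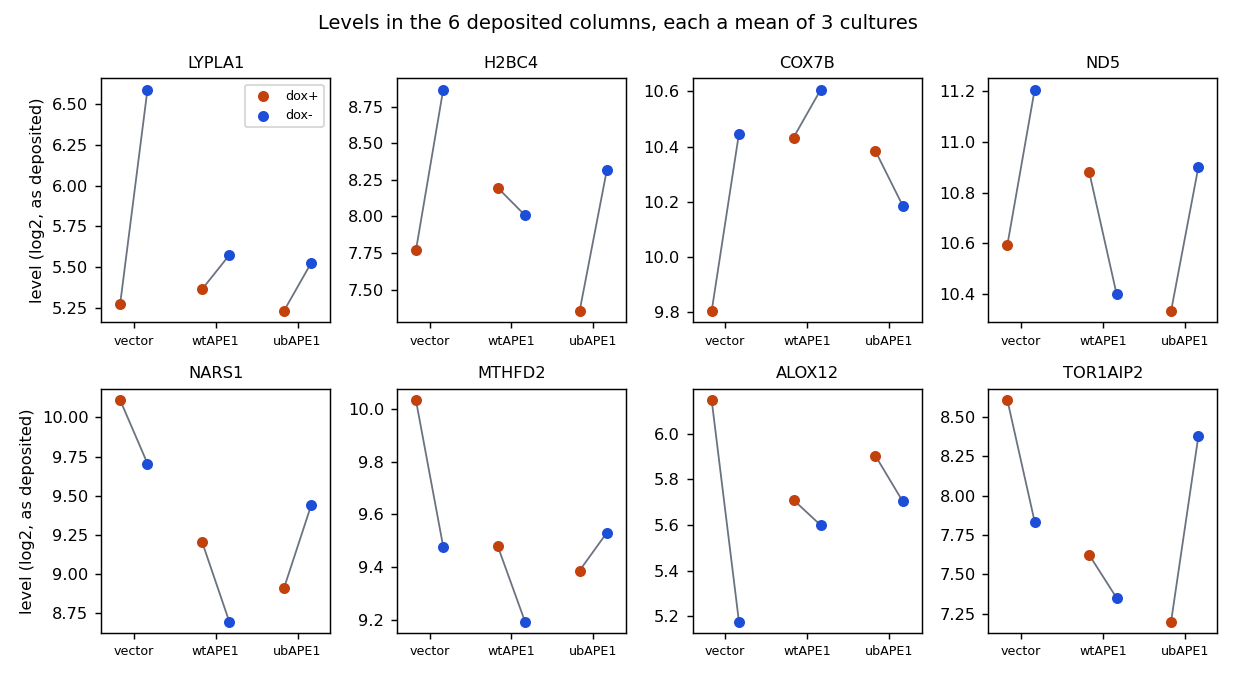
Deposited log2 levels of 8 genes in the 6 columns, with dox+ left of dox- in each line and no error because each column is a mean of 3 cultures. LYPLA1 stands out by its vector dox- column (6.59), ALOX12 has its highest and lowest values in the vector columns (6.15 and 5.18), and TOR1AIP2 differs in direction between the vector and ubAPE1 lines.

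The vector response was set beside those of the APE1 lines, which share no column with it. Over the 11619 kept rows the vector response correlated with the wtAPE1 response at r = 0.02 and with the ubAPE1 response at r = -0.20, and within row blocks at 0.10 and -0.10. Rows share their arrays, so these are descriptions. Of the 70 lower rows, 45 (64.3%) were also below 0 in wtAPE1 and 31 (44.3%) in ubAPE1, and 21 (30%) in both. Over all kept rows the share with the same sign was 50% in wtAPE1, 42.4% in ubAPE1 and 15.5% in both. Of the 40 higher rows, 20 (50%) were above 0 in wtAPE1, 16 (40%) in ubAPE1 and 6 (15%) in both.

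Some counted rows passed 1.5-fold in another line, given beside the share of all kept rows that did. Of the 70 lower rows, 1 (1.43%) was lower in wtAPE1, against 0.422%. It was H2BC26, a histone H2B gene, named after its values were seen. In ubAPE1 6 (8.57%) were lower, among them H2BC4, against 3.81%. Of the 40 higher rows, 3 (7.5%) were higher in wtAPE1, all with no single symbol, against 0.508%. In ubAPE1 7 (17.5%) were higher, among them KRTAP21-2 and CHRM4, against 1.21%. In the opposite direction, 7 of the 40 higher rows (17.5%) were lower in ubAPE1, among them TOR1AIP2 and GINM1, against 3.81%. Of the 70 lower rows, 5 (7.14%) were higher in ubAPE1 and 2 (2.86%) in wtAPE1, against 1.21% and 0.508%. In wtAPE1 1 of the 40 higher rows (2.5%) was lower, CHRM4, against 0.422%. CHRM4 had -1.20 in wtAPE1, with 4.71 log2 with and 5.84 log2 without doxycycline. Core histones had a median of -0.33 log2 in wtAPE1, with 24 of 28 below 0, and of -0.01 log2 in ubAPE1, with 14 of 28 below 0. Complex IV had -0.25 log2 in wtAPE1 and 0.25 log2 in ubAPE1. The cytosolic synthetases had 0.16 log2 in wtAPE1 and -0.16 log2 in ubAPE1, and the mitosis genes had 0.25 and -0.22 log2.

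**Figure D5:**
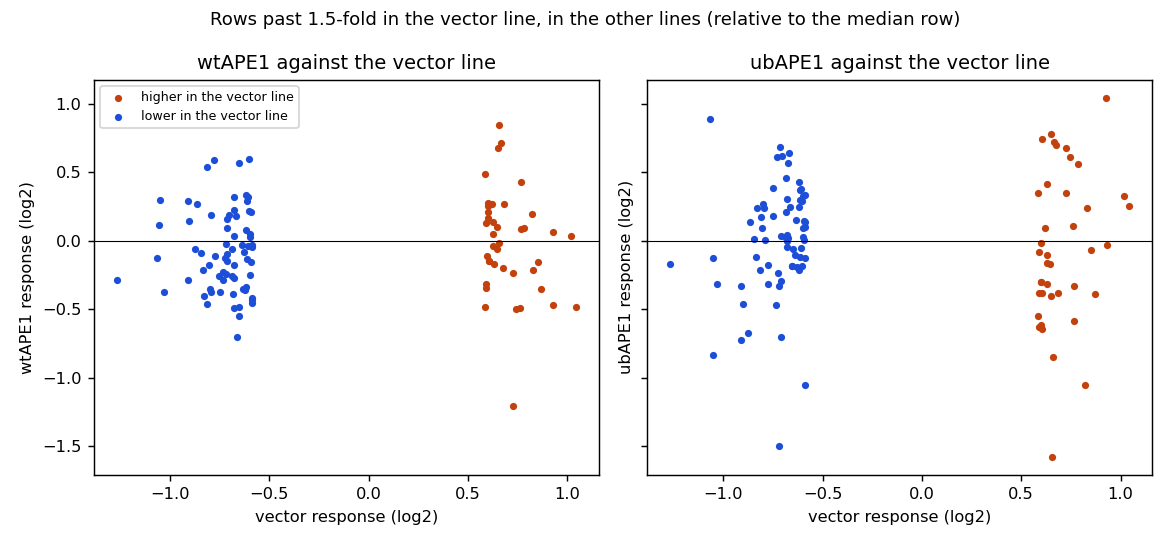
Responses (dox+ minus dox-, log2, relative to the median row) of the 40 higher and 70 lower vector rows in the wtAPE1 line (left) and the ubAPE1 line (right), against the vector response. In the wtAPE1 panel 45 of the 70 lower rows lie below 0 and 20 of the 40 higher rows above it, and in the ubAPE1 panel 31 and 16.

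Whether any row moved evenly with doxycycline over the 3 lines was tested with limma, with cell line as a covariate and Benjamini-Hochberg adjustment over all kept rows. The lines stand in for replicates, with 2 residual degrees of freedom. No row passed an adjusted p of 0.05 (0 of 11619, 0%), and 194 rows had an unadjusted p under 0.05, 26 of them among the 110 rows counted in the vector line. The 110 rows were counted by the vector difference, which is part of the common effect, so that overlap is no support for them. LYPLA1 had a common effect of -0.61, BIRC5 -0.61 and H2BC4 -0.63 as deposited, lower in 3, 3 and 2 of the 3 lines relative to the median row, each with a limma adjusted p of 1.00. With the columns centred on their medians, limma called 9 rows, 4 higher and 5 lower. They include APEX1, the gene of the induced protein, at 0.17 in the vector line, 1.1 in wtAPE1 and 0.88 in ubAPE1 (adjusted p 0.0019), so a call does not mean that the lines moved evenly. KRTAP21-2 was called at 0.93 in the vector line, 0.06 in wtAPE1 and 1.04 in ubAPE1 (adjusted p 0.0035), and COX7A2 at -0.45 in the vector line, -1.13 in wtAPE1 and -0.54 in ubAPE1 (adjusted p 0.0035).

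A second limma fit tested the vector response minus the mean response of the APE1 lines, with 1 residual degree of freedom. It called 0 of 11619 rows (0%), and 87 had an unadjusted p under 0.05, 40 of them among the 110 counted rows. On simulated data the fit did not recover changes of 2-fold, so its count says nothing about whether the responses differ. The vector columns by which the 110 rows were counted also enter this fit, so the overlap with those rows is no support for them. The difference was -1.06 log2 for LYPLA1, 1.14 for CCT8L2, 1.16 for HOXC11 and 1.23 for TOR1AIP2, each with a limma adjusted p of 1.00. Within row blocks it called 1 row, which has no single symbol, with responses of -1.07 in the vector line, -0.13 in wtAPE1 and 0.89 in ubAPE1 (adjusted p 0.011).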

How the data were processed

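Total RNA of 6 HEK293 samples was labelled and measured on Affymetrix whole-transcript arrays. The deposited values are log2 levels per row, 1 column a group, and per the labels the authors averaged 3 biological replicates into each. The scale was read from the values. How probes were summarised, corrected, normalized and filtered is not given in the sources used here, and the number of columns limits the precision. The genome build is hg 18 per the submitters' processing notes, so coordinates are given only for RefSeq promoter windows of GRCh38.p14. Of 15492 rows, 12616 have 1 symbol in the platform annotation, 2031 several and 845 none.

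Rows under the 25th percentile of row means were left out, and responses are relative to the median row. The members, gene lists and named genes were chosen with earlier results of these data known. Named genes are the 10 highest and 10 lowest rows with 1 symbol, and from each list members past 1.5-fold or else those with the largest responses. A gene's value is that of its row with the highest mean, unless the row is itself among these extremes. Fits used limma 3.58.1 in R 4.3.3, tested on simulated data. Other steps used Python 3.11.15 with pandas 2.3.3, numpy 2.4.6 and statsmodels 0.14.6, and figures matplotlib 3.10.9. Alternatives were other row filters, no median subtracted, quantile normalization, lowess on level, a floor at the 10th percentile (4.09 log2), a 2-fold rule, 1 row per gene, all rows of a gene, removal of a length trend over 20 bins, an intensity trend with robust eBayes, centred columns, leaving out each line and the additive fit's spread. Subtracting the median within 2 row blocks was chosen after seeing the data.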

Additional observations from a re-analysis of the deposited data

Results flagged for a closer look

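Some responses of the vector line had the opposite sign in another line, and these differences were not tested beyond the limma fit reported above. The complex IV median was -0.41 log2 in the vector line and 0.25 log2 in ubAPE1, a difference of -0.66. The mitochondrial aminoacyl-tRNA synthetases had medians of 0.12 log2 in the vector line and -0.24 log2 in ubAPE1, a difference of 0.36, and the cytosolic synthetases had 0.19 and -0.16 log2, a difference of 0.35. The median response rose with genomic length in the vector line and fell with it in ubAPE1. The part of length in these list differences was not tested. Among single rows, CHRM4 had 0.73 log2 in the vector line and -1.20 log2 in wtAPE1, a difference of 1.93. TOR1AIP2 had 0.82 log2 in the vector line and -1.05 log2 in ubAPE1, a difference of 1.87. GINM1 had 0.77 log2 in the vector line and -0.59 log2 in ubAPE1, a difference of 1.35. With the median subtracted within row blocks, the differences were 0.18 for the mitochondrial synthetases (0.07 in the vector line and -0.11 in ubAPE1), 0.24 for the cytosolic synthetases, -0.65 for complex IV, 2.02 for CHRM4, 1.64 for TOR1AIP2 and 1.12 for GINM1.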

How the results depend on the processing

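The vector columns are single means, so no size above carries a replicate error, and the count of rows past 1.5-fold depended on the filter. It was 110 as reported, 268 with no row filter (123 higher and 145 lower), 64 at the 50th percentile (22 higher and 42 lower) and 7 at 2-fold (2 higher and 5 lower). It was 23 higher and 100 lower as deposited, and 25 higher and 54 lower with 1 row per gene. The filters change how many rows are counted over and the 2-fold rule is stricter by construction, and for the other settings the cause was not tested. Over all lists and settings, 354 recalculated medians moved by less than the spread of the median over members and 58 by more. A turn of sign was counted apart only for the 12 lists described next, and there 1 median turned. Medians of other lists also changed sign. Integrated stress response regulators went from 0.01 to -0.06 log2 at the 50th percentile, and iron handling from 0.05 to -0.009 log2 with no filter. Among the 12 lists with at least 5 kept genes and a median at least 0.1 log2 from 0, the medians that moved by more than the spread over their members were, as deposited, the small mitochondrial ribosomal subunit (-0.15), ATF4 amino acid synthesis targets (0.063), cytosolic synthetases (0.15) and NRF2 targets (0.059). Within row blocks they were the small mitochondrial subunit (-0.15), the ATF4 amino acid targets (0.14) and core histones (-0.43), and core histones had -0.30 with the length trend removed. Interferon-stimulated genes turned to -0.010 with no filter, over 10 genes in place of 5. The limma common effect called 9 rows with centred columns, and the difference called 1 within row blocks. Shares of lower rows with the same sign were 50% in wtAPE1 and 63% in ubAPE1 as deposited. As deposited, the median row changed by 0.07 log2 in wtAPE1 and by -0.13 log2 in ubAPE1, and these shares shift with it. In ubAPE1 the lower share was 31.0% at the 50th percentile and 80% at 2-fold (5 rows). The higher share was 63.3% within row blocks (30 rows) and 100% at 2-fold (2 rows). Each share is over the rows counted under its own setting. Of the 40 rows reported as higher, 18 (45%) had the same sign in ubAPE1 within row blocks. Over all kept rows the same-sign share in ubAPE1 was 42.4% as reported, the centring of the 2-fold rule, and 45.1% within row blocks. As deposited and at the 50th percentile the share over all rows was not calculated. The 20 extreme named rows kept their direction in all 151 recalculations, each within the median residual SD of 0.151 log2. They are the extremes of the same 2 columns, so a change of direction was hardly possible, and this says nothing about replicate error. No pairing by replicate number could be made, since each group has 1 averaged column, and the common fit compares dox+ with dox- within each cell line.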

Other observations

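Gene groups outside the comparisons above had small responses. PDIA6, a disulfide isomerase of the endoplasmic reticulum, had 10.81 log2 in vector dox+ and 10.32 log2 in vector dox-, a response of 0.53, and PDIA4 had 0.35, while the 15 endoplasmic reticulum chaperones together had a median of 0.03 log2. The p53 targets had a median of 0.07 log2, with CDKN1A, the cell cycle inhibitor p21, at -0.24. STOML2, a mitochondrial inner membrane scaffold, had -0.43, and the mitochondrial chaperones HSPD1 and the protease CLPP had -0.34 and -0.33.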
